A study of Mus musculus with 6 samples.

Results

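The iron uptake, storage and export genes described are *Tfrc*, *Steap3*, *Slc11a2*, *Fth1*, *Ftl1*, *Ncoa4*, *Slc40a1*, *Ireb2*, *Fbxl5* and *Alas1*. They were chosen by symbol for their known role in iron handling and not by their values, although earlier results of these data were known. All 10 were found among the 35602 genes of the count table and among the 34714 genes of the replicate 1 files. Cells take up iron as transferrin bound to the transferrin receptor, reduce it in endosomes, move it into the cytosol and store the surplus in ferritin. Iron regulatory proteins sense the labile pool and bind stem-loops, called iron-responsive elements, in the messenger RNAs of several of these genes. Activated T cells are known to raise the transferrin receptor, since dividing cells need iron for heme, iron-sulfur clusters and ribonucleotide reductase.

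The RNA came from mouse splenic CD4+ T cells stimulated through CD3 and CD28, and it was sequenced in 6 libraries, 3 with the solvent DMSO and 3 with MAPK13-IN-1, an inhibitor of the kinase encoded by *Mapk13*. The comparison asks which transcripts differ when this kinase is inhibited. Replicates 2 and 3 of each group came from wild-type (WT) mice, and the labels give 0.1 µl of DMSO or 17.1 µM inhibitor, added after day 1 of culture, whereas the series describes stimulation for 72 h in the presence of the agent. The labels of the replicate 1 pair state neither genotype nor dose. The labels do not give strain or age. The labels do not say that replicates were separate cultures or animals, so p-values measure only the spread between these samples, which may be technical. The count table covers replicates 2 and 3. Its totals were 26874805 and 28487403 for DMSO replicates 2 and 3 and 33854760 and 32617702 for MAPK13-IN-1 replicates 2 and 3. The replicate 1 pair was made with another library kit and is given as values read as FPKM (fragments scaled by gene length and sequencing depth), of unknown depth and with 1 library per group. Levels from the count table are CPM, counts scaled to a common sequencing depth with TMM factors.

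The cell type label was compared with marker genes, summed as CPM by library totals in DMSO replicates 2 and 3 and then MAPK13-IN-1 replicates 2 and 3. Of 8 CD4 T cell markers 7 were in the table (*Trac* was not listed), and they summed to 1596, 1618, 947 and 1065 CPM, with *Cd5* the most abundant over the 4 libraries together at 408, 419, 161 and 208 CPM. Of these 7 genes 6 were called lower and 0 higher with the inhibitor, where 32.3% and 31.5% of all genes tested were. *Cd4* itself, with 7084, 7497, 9477 and 9594 counts, was not called (log2 fold change −0.00064, adjusted p = 0.993), and it had more counts than *Cd5* in both inhibitor libraries. B cell markers (11 of 12, *Ighm* not listed) summed to 1121, 1095, 1415 and 1428 CPM, with *Pax5* the most abundant over the 4 libraries together at 171, 161, 276 and 281 CPM. The libraries labelled as CD4+ T cells, which the series describes as sorted, therefore also held B cell transcripts, and 8 of the 11 B cell genes tested were called higher and 2 lower with MAPK13-IN-1. In the replicate 1 pair the CD4 T cell list summed to 1024 FPKM for DMSO and 934 FPKM for MAPK13-IN-1, and the B cell list to 53.7 and 37.2 FPKM.

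Cell types that handle much iron were also followed, and their calls are to be read beside the 32.3% of all genes called lower and the 31.5% called higher. The leading gene named for each list is the one with the highest level over the 4 libraries together. The 12 erythroid markers summed to 14.1, 14, 99.1 and 72.3 CPM, led by *Hbb-bs* at 1.90, 1.65, 31.0 and 22.8 CPM, and 7 of the 10 tested were called higher and 2 lower. The lower ones, *Gata1* (93, 99, 19 and 18 counts) and *Epor* (70, 76, 48 and 70 counts), were above *Hbb-bs* (51 and 47 counts) in the DMSO libraries. The 12 macrophage markers summed to 11.6, 10.3, 42.2 and 33.7 CPM, led by *Cd68* at 10.0, 8.88, 29.8 and 26.0 CPM, and 5 of the 6 tested were called higher and 0 lower. The 6 dendritic cell markers summed to 18.4, 18.6, 61.9 and 51.1 CPM, led by *Zbtb46* at 14.7, 14.4, 48.0 and 38.4 CPM, and 4 of the 4 tested were called higher. These lists were low in every library and higher in both inhibitor libraries than in both DMSO libraries. The 2 CD8 markers, led by *Cd8b1*, summed to 11.2, 10.4, 5.76 and 8.16 CPM. The 8 neutrophil markers, led by *Mpo*, summed to 0.447, 0.772, 0.857 and 1.04 CPM, and the 4 NK cell markers, led by *Klrb1c*, to 0, 0.0702, 0.532 and 0.215 CPM, with *S100a9* and *Klra8* at 0 counts in all 4 libraries. In the neutrophil list *Cxcr2* (6, 14, 0 and 3 counts) was above *Mpo* (2, 2, 17 and 16 counts) with DMSO and fell below it with the inhibitor. In the replicate 1 pair, DMSO first, the sums were 1.64 and 3.77 FPKM for the erythroid list, 3.08 and 11.3 FPKM for the macrophage list, and 3.36 and 14.6 FPKM for the dendritic cell list. Within the erythroid list *Gata1*, called lower in the count table, went from 0.630 to 1.70 FPKM there. The CD8 list was higher with the inhibitor there (3.49 and 8.39 FPKM) and the neutrophil list lower (0.766 and 0.472 FPKM), both opposite to the count table, and the NK cell list was at 0.0909 and 0.173 FPKM. The part of these other cell types in the changes of the iron genes was not tested, and in bulk samples fewer cells of a type and less RNA per cell cannot be told apart.

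With MAPK13-IN-1, *Fth1* (ferritin heavy chain), *Ncoa4* (ferritin turnover), *Steap3* (endosomal iron reduction) and the sensing genes *Ireb2* and *Fbxl5* were higher in the count table. *Slc11a2* (endosomal iron export) and *Alas1* (start of heme synthesis) were lower, although *Alas1* was higher in the replicate 1 pair. The sensor gene *Aco1*, from another list, was not called. A filter on low counts was passed by 9 of the 10 genes, with *Slc40a1* left out. At an adjusted p below 0.05 (edgeR's quasi-likelihood test, adjusted over 16269 genes by the Benjamini-Hochberg method), 3 of the 9 were called lower, where 32.3% of all genes tested were called lower, and 5 were called higher, where the share of all genes was 31.5%. With a change past 2-fold also required, 0 were lower, against 10.4% of all genes, and 2 were higher, against 13.0%. The count of 0 was the same at an unadjusted p below 0.05 and with DESeq2. The median log2 fold change of the 9 genes was 0.35, beside 0.01 over all genes tested. With libraries scaled by their totals alone, all log2 fold changes moved by a median of 0.13 toward higher values.

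**Figure D1:**
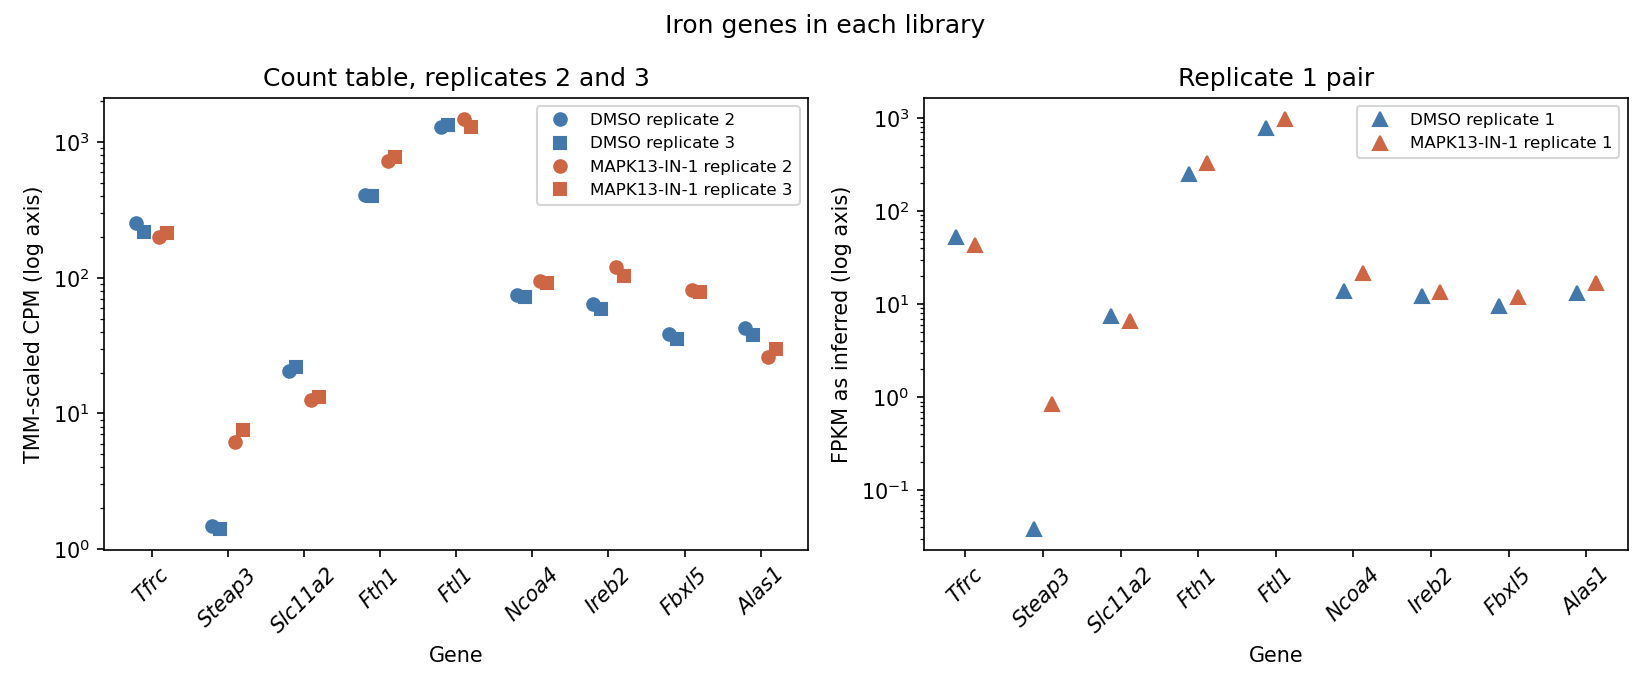
Level of 9 iron genes in each library, as TMM-scaled CPM for replicates 2 and 3 (left) and as FPKM for the replicate 1 pair (right), both on log axes, with DMSO in blue and MAPK13-IN-1 in orange; *Slc40a1* is left out because it was at 0 counts in 3 of the 4 libraries. *Fth1*, *Ireb2*, *Fbxl5* and *Steap3* stand apart between the groups on the left, whereas *Tfrc* lies between 201 and 253 CPM and *Ftl1* between 1291 and 1497 CPM.

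Uptake begins with *Tfrc*, the transferrin receptor, on chromosome 16 (GRCm38, chr16:32608920-32632794, plus strand). It was at 253 and 220 CPM in DMSO replicates 2 and 3 and at 201 and 216 CPM in MAPK13-IN-1 replicates 2 and 3. DMSO replicate 2 was the highest, the other 3 libraries lay close together, and the groups did not overlap on this scale. The log2 fold change was −0.18 (standard error 0.07, 95% interval −0.34 to −0.02, adjusted p = 0.0473). This call held under 5 of 11 alternative settings, over which the adjusted p ranged from 1.27e-06 to 0.501. Without DMSO replicate 2 the log2 fold change was −0.09 (adjusted p = 0.469), and with library totals it was −0.06 (adjusted p = 0.501). As a share of all counts, *Tfrc* took 0.0243% and 0.0210% with DMSO and 0.0210% and 0.0224% with the inhibitor, so that the groups overlapped. DMSO replicate 1 held 53.1 FPKM and MAPK13-IN-1 replicate 1 held 43.0 FPKM.

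*Steap3*, the ferrireductase that reduces iron in endosomes, had 38 and 38 counts with DMSO and 217 and 257 counts with the inhibitor. These are 1.47, 1.40, 6.11 and 7.58 CPM, a low level in every library, with both inhibitor libraries far above both DMSO libraries. The log2 fold change was 2.25 (standard error 0.21, 95% interval 1.79 to 2.72, adjusted p = 6.8e-06), the widest change among the 9 genes tested. Replicate 1 values were 0.0382 and 0.853 FPKM, DMSO first, both below 1 FPKM. *Slc11a2*, the divalent metal transporter that moves ferrous iron out of endosomes, was at 20.4 and 22.2 CPM with DMSO and at 12.7 and 13.2 CPM with MAPK13-IN-1. Both inhibitor libraries were lower than both DMSO libraries, with little spread within a group. It fell by 0.72 on the log2 scale (standard error 0.11, 95% interval −0.95 to −0.49, adjusted p = 0.000161). *Slc11a2* in the replicate 1 pair was at 7.47 and 6.59 FPKM, lower with the inhibitor by a smaller step.

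Storage rests on ferritin, a shell of heavy and light chains. *Fth1*, the heavy chain that oxidises iron for storage, was at 407 and 403 CPM with DMSO and at 731 and 780 CPM with MAPK13-IN-1. The DMSO libraries were nearly alike and both inhibitor libraries lay well above them. The log2 fold change was 0.90 (standard error 0.05, 95% interval 0.78 to 1.02, adjusted p = 3.02e-07), and with library totals it was 1.02, past 2-fold. Replicate 1 values of *Fth1* were 249 and 329 FPKM, again higher with the inhibitor.

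*Ftl1*, the light chain, was at 1307 and 1347 CPM with DMSO and at 1497 and 1291 CPM with MAPK13-IN-1. The inhibitor libraries lay on both sides of the DMSO libraries, and the groups overlapped. The log2 fold change was 0.07 (standard error 0.06, 95% interval −0.07 to 0.21, adjusted p = 0.356), which misses the threshold. The inhibitor libraries decided this value, since without MAPK13-IN-1 replicate 3 it was 0.17 (adjusted p = 1.55e-05) and without MAPK13-IN-1 replicate 2 it was −0.04 (adjusted p = 0.363), and across settings the adjusted p spanned 1.55e-05 to 0.742. With library totals it was 0.20 (adjusted p = 0.0204). Its replicate 1 values were 778 and 986 FPKM, higher with the inhibitor.

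The ferritin chains were also set against each other within a library, where scaling has no part. The ratio of *Fth1* to *Ftl1* counts was 0.312 (exact Clopper-Pearson 95% interval 0.305 to 0.319) and 0.299 (0.293 to 0.305) in DMSO replicates 2 and 3, and 0.489 (0.481 to 0.496) and 0.604 (0.595 to 0.614) in MAPK13-IN-1 replicates 2 and 3. Both inhibitor libraries had more heavy chain per light chain than both DMSO libraries, and they differed from each other beyond their intervals. The ratio of FPKM in replicate 1 was 0.320 with DMSO and 0.334 with the inhibitor. The ratio of *Fth1* to *Tfrc* counts was 1.61 and 1.83 with DMSO and 3.65 and 3.62 with MAPK13-IN-1, and the ratio of FPKM was 4.69 and 7.66. It was higher with the inhibitor in the count table and in the replicate 1 pair. The ratio of *Ftl1* to *Tfrc* counts was 5.17 and 6.13 with DMSO and 7.46 and 5.98 with MAPK13-IN-1, so that the groups overlapped. As a ratio of FPKM it was 14.6 and 22.9, DMSO first. All intervals on counts cover counting error only.

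*Ncoa4*, the receptor that carries ferritin to lysosomes for breakdown, was at 75.2 and 71.7 CPM with DMSO and at 95.0 and 91.6 CPM with MAPK13-IN-1. The groups did not overlap and each was tight. It rose by a log2 fold change of 0.35 (standard error 0.06, 95% interval 0.20 to 0.49, adjusted p = 0.000857). The replicate 1 values were 13.8 and 21.7 FPKM, and no other iron gene with at least 1 FPKM moved past 1.5-fold there.

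Export has a single member, *Slc40a1*, which encodes ferroportin, the iron exporter of the cell surface. It had 0, 0, 6 and 0 counts in DMSO replicates 2 and 3 and MAPK13-IN-1 replicates 2 and 3. Counts were seen in MAPK13-IN-1 replicate 2 and not in the other 3 libraries, where a count of 0 allows up to 0.112, 0.105 and 0.0920 CPM by library totals, without TMM factors. It was not tested, and no fold change is given. Replicate 1 values were 0.00879 FPKM for DMSO and 0.0746 FPKM for MAPK13-IN-1. No limit of detection can be given for the replicate 1 libraries, whose depth is unknown.

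Among the sensors, *Ireb2* encodes iron regulatory protein 2, which binds iron-responsive elements when iron is scarce. It was at 63.9 and 58.7 CPM with DMSO and at 121 and 104 CPM with MAPK13-IN-1. Both inhibitor libraries were above both DMSO libraries. The log2 fold change was 0.87 (standard error 0.08, 95% interval 0.69 to 1.06, adjusted p = 8.55e-06). The replicate 1 pair held 12.4 and 13.7 FPKM, a small difference in the same direction.

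*Fbxl5*, the iron-binding F-box protein that marks iron regulatory protein 2 for degradation, was at 38.7 and 35.7 CPM with DMSO and at 81.9 and 78.7 CPM with the inhibitor. It was higher in both inhibitor libraries, and the replicates of each group lay close together. It rose by a log2 fold change of 1.11 (standard error 0.07, 95% interval 0.95 to 1.28, adjusted p = 7.13e-07). Replicate 1 values of *Fbxl5* were 9.62 and 11.9 FPKM. The sensor and its degrading factor thus rose together, and the ratio of *Ireb2* to *Fbxl5* counts went from 1.65 and 1.65 with DMSO to 1.48 and 1.32 with MAPK13-IN-1.

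*Aco1*, from the list of other pathway genes, encodes iron regulatory protein 1, which is the cytosolic aconitase when it holds an iron-sulfur cluster. It was at 43.1 and 41.7 CPM with DMSO and at 49.2 and 45.7 CPM with MAPK13-IN-1. Its log2 fold change was 0.16 with a standard error of 0.08, and its adjusted p of 0.0894 missed the threshold. Without MAPK13-IN-1 replicate 3 it was 0.21 (adjusted p = 0.012), and across settings the adjusted p spanned 0.00819 to 0.424. The ratio of *Ireb2* to *Aco1* counts was 1.48 and 1.41 with DMSO and 2.46 and 2.27 with the inhibitor, whereas the ratio of FPKM in the replicate 1 pair was 1.34 and 1.13. The 2 sets of libraries therefore differed in the direction of this ratio.

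Heme synthesis starts with *Alas1*, the first enzyme of the pathway outside red cells. It was at 42.4 and 38.2 CPM with DMSO and at 25.9 and 29.9 CPM with MAPK13-IN-1. Both inhibitor libraries were lower than both DMSO libraries. It fell by 0.53 on the log2 scale (standard error 0.10, 95% interval −0.75 to −0.31, adjusted p = 0.000793). Replicate 1 went the opposite way, from 13.3 FPKM for DMSO to 17.1 FPKM for MAPK13-IN-1.

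**Figure D2:**
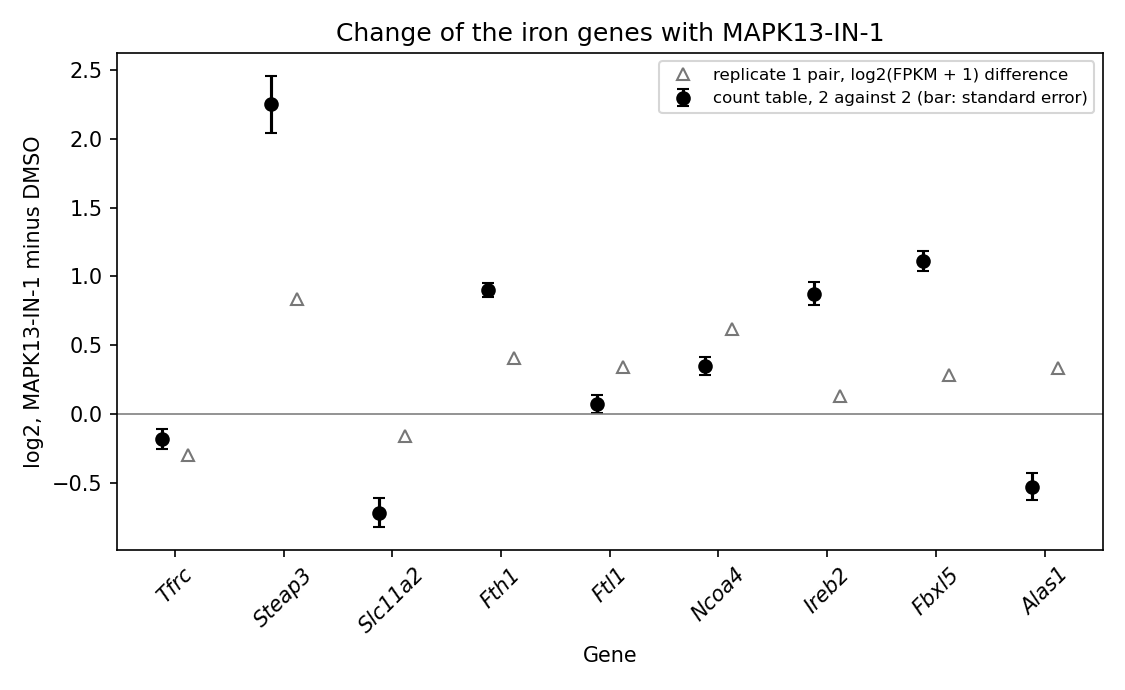
Log2 difference, MAPK13-IN-1 minus DMSO, of 9 iron genes: filled points give the count table (2 libraries against 2) with the standard error as bars, and open triangles the replicate 1 pair on the log2(FPKM + 1) scale, with no error since there is 1 library per group. *Steap3* (2.25) and *Fbxl5* (1.11) lie past a log2 fold change of 1, and *Alas1* is at −0.53 in the count table and 0.33 in the replicate 1 pair.

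In the replicate 1 pair, which has no test, 8 of the 10 genes reached 1 FPKM in either library. Of these 8 genes 1 was higher past 1.5-fold, where 17% of 11510 genes were, and 0 were lower past 1.5-fold, where 7.53% were. The log2 ratios, on the log2(FPKM + 1) scale that understates the change of low genes, were −0.30 for *Tfrc*, −0.16 for *Slc11a2*, 0.40 for *Fth1*, 0.34 for *Ftl1*, 0.62 for *Ncoa4*, 0.13 for *Ireb2*, 0.28 for *Fbxl5* and 0.33 for *Alas1*. The median of these 8 was 0.31, beside 0.08 over all genes tested. Of the 8 genes called in the count table, 7 had the same direction in the replicate 1 pair and 1, *Alas1*, the opposite. The share of all called genes that kept their direction is not given here, so this count has no background to be read against. The replicate 1 pair leaned to higher values over all genes, and *Steap3*, among the 7, was below 1 FPKM in either library. Among the called genes these steps were smaller in the replicate 1 pair than in the count table, except for *Ncoa4* and *Tfrc*, and for *Steap3*, whose ratio there was 0.84 with a pseudocount of 1 and 2.79 with 0.1. The step of *Ftl1*, which was not called, was also larger there.

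Levels of different genes were compared per kilobase of merged exons. With DMSO the order was *Ftl1* (990 ± 21.4 CPM per kilobase, SD, n = 2), *Fth1* (117 ± 0.906), *Tfrc* (38.2 ± 3.80), *Ncoa4* (7.84 ± 0.264), *Alas1* (6.53 ± 0.488), *Ireb2* (6.47 ± 0.387), *Fbxl5* (3.82 ± 0.220), *Slc11a2* (3.35 ± 0.197), *Steap3* (0.251 ± 0.00945) and *Slc40a1* (0). *Alas1* and *Ireb2* did not differ beyond their spread. The same order was found per kilobase of the longest coding transcript and in the FPKM of DMSO replicate 1. With MAPK13-IN-1 *Ftl1* (1040 ± 108 CPM per kilobase), *Fth1* (218 ± 9.97) and *Tfrc* (33.7 ± 1.73) kept the first ranks, followed by *Ireb2* (11.9 ± 1.3), *Ncoa4* (9.96 ± 0.261), *Fbxl5* (8.25 ± 0.236), *Alas1* (4.52 ± 0.455), *Slc11a2* (2.03 ± 0.0602) and *Steap3* (1.20 ± 0.182). *Alas1* thus stood above *Fbxl5* with DMSO and below it with the inhibitor, whereas in MAPK13-IN-1 replicate 1 it stayed above, at 17.1 against 11.9 FPKM. Per kilobase of the longest coding transcript *Ncoa4* (23.0) came before *Ireb2* (19.5) with MAPK13-IN-1.

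Some of these genes share sequence with other genes. Of the stretches of 50 bases in the longest coding transcript, 78.9% for *Ftl1*, 43.1% for *Ncoa4* and 4.01% for *Fth1* occurred in transcripts of other annotated genes (15, 1 and 1 genes), and 0% for the other 7 genes. Of the 15 copies related to *Ftl1*, 1 was in the count table, with 16 counts over the 4 libraries against 167199 for *Ftl1*. Exons of *Ftl1* (26.5% of bases), *Alas1* (7.53%), *Slc11a2* (6.33%) and *Fbxl5* (1.01%) also overlapped a gene on the opposite strand. Values of these genes are uncertain to that extent, since the sources used here do not say how shared reads were counted or whether strand was used for the count table.

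The untranslated regions (UTRs) of coding transcripts were searched on the sense strand for the form of an iron-responsive element, a C, a stem of 5 bases, the loop CAGTGN with a last base other than G, and 5 bases that pair with the stem, G-T pairs allowed. The pattern was found in 4 of the 10 genes, as 1 site in the 5′ UTR of *Fth1*, *Ftl1* and *Slc40a1* and as 4 sites in the 3′ UTR of *Tfrc*. In 5′ UTRs this element is known to block translation and in 3′ UTRs to protect the messenger from decay when a regulatory protein is bound. The sites are shown because these 4 messengers share them, while the other 6 genes had none. They lie at chr19:9982732-9982760 (plus strand) for *Fth1*, chr7:45459779-45459807 (minus strand) for *Ftl1* and chr1:45925465-45925493 (minus strand) for *Slc40a1*, and for *Tfrc*, on the plus strand, at chr16:32631219-32631247, chr16:32631598-32631626, chr16:32631663-32631691 and chr16:32631710-32631738. All coordinates are GRCm38 and the sequences are from GENCODE vM21, written 5′ to 3′ with the loop in capitals.
Fth1 site 1: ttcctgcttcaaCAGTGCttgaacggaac
Ftl1 site 1: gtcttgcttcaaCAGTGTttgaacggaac
Slc40a1 site 1: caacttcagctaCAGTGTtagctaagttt
Tfrc site 1: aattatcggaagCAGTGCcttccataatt
Tfrc site 2: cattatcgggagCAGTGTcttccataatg
Tfrc site 3: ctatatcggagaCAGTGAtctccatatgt
Tfrc site 4: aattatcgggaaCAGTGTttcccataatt

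The pattern was rare, being present in the 5′ UTR of 22 of 20045 genes (0.110%) and in the 3′ UTR of 95 of 20155 genes (0.471%). Of the 22 genes 17 were tested, with 10 called lower and 3 higher and a median log2 fold change of −0.21, beside 4660 lower, 4208 higher and a median of −0.02 for the 13173 tested genes with a 5′ UTR. Of the 95 genes 73 were tested, with 26 called lower and 27 higher, beside 4681 and 4221 of the 13221 tested genes with a 3′ UTR. *Fth1* and *Ftl1* carry the same kind of site in the same place, and 1 was called higher and the other was not called. A list of known bearers of the element held 10 genes, 9 of them tested, with 4 called lower and 4 higher (all genes 32.3% and 31.5%). The pattern was not found in *Slc11a2*, *Epas1*, *Cdc14a* and *Cdc42bpa*, which are on that list. Beside the iron genes, *Cdc42bpa*, a kinase acting on the cytoskeleton, went from 12.4 and 11.9 CPM to 6.57 and 6.40 CPM (log2 fold change −0.91, standard error 0.13, adjusted p = 0.000125), but was higher with the inhibitor in replicate 1 (1.51 and 1.99 FPKM). *Epas1*, a hypoxia-inducible factor subunit, was at 5.12, 3.38, 7.16 and 7.29 CPM (0.77, 0.20, adjusted p = 0.0059), and the phosphatase gene *Cdc14a* was at 19.7, 18.8, 26.3 and 23.3 CPM (0.37, 0.10, adjusted p = 0.00938). These last calls were lost without DMSO replicate 3, at 0.49 (adjusted p = 0.076) and 0.32 (adjusted p = 0.0814), where the largest adjusted p over the alternatives was 0.076 and 0.0814.

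A list of 71 other genes of iron and heme handling had 65 tested members, of which 29 were called lower and 15 higher (all genes 32.3% and 31.5%), with a median log2 fold change of −0.19 beside 0.01 over all genes. With library totals 24 were lower and 19 higher, where 4302 and 6176 of all 16269 genes were. The counts of the list and of all genes thus moved the same way with the scaling. Under either scaling more of the listed genes were lower than higher. The replicate 1 median of this list was 0.04, beside 0.08 over all genes tested. Of its 56 genes with at least 1 FPKM 3 were lower and 5 higher past 1.5-fold, where 7.53% and 17% of all genes were. Differences between subgroups were not tested. Of 25 iron-sulfur cluster genes, all tested, 15 were lower and 4 higher (median −0.41, and −0.01 in replicate 1), and of 12 heme synthesis genes 5 were lower and 2 higher (median −0.17). Of 9 genes of heme breakdown and transport, 2 were lower and 5 higher (median 0.34). Of 10 tested uptake and reductase genes 4 were lower and 2 higher, of 3 tested storage and chaperone genes 2 were lower and 1 higher, and of 3 sensing genes 0 were lower and 1 higher. The mitochondrial iron importers, 2 genes, were not called, and 1 of 4 export genes was tested and called lower.

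**Figure D3:**
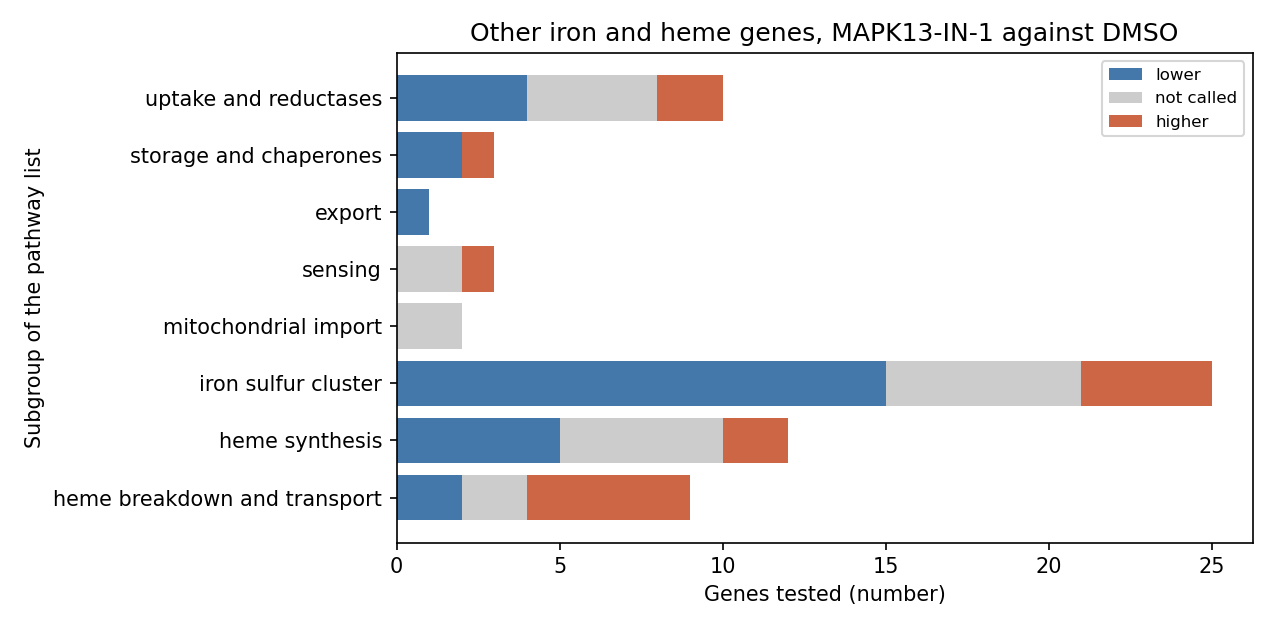
Number of tested genes in each subgroup of the list of other iron and heme genes that were called lower (blue), not called (grey) or called higher (orange) with MAPK13-IN-1 at an adjusted p below 0.05, drawn as stacked bars. The iron-sulfur cluster subgroup has 15 lower and 4 higher, and heme breakdown and transport has 2 lower and 5 higher.

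The cluster genes with the smallest p were all lower. *Ciapin1*, a factor of cytosolic cluster assembly, went from 54.3 and 56.7 CPM with DMSO to 17 and 18.3 CPM with MAPK13-IN-1 (log2 fold change −1.66, standard error 0.09, adjusted p = 1.6e-07). *Hspa9*, the mitochondrial chaperone that takes part in cluster transfer, went from 681 and 695 to 375 and 369 CPM (−0.89, 0.05, adjusted p = 2.23e-07), and *Isca2*, a late mitochondrial assembly factor, from 20.2 and 19.9 to 6.28 and 7.97 CPM (−1.49, 0.13, adjusted p = 4.91e-06). Within each of these genes the groups did not overlap, which is no further result, since they were picked by the smallest p. *Hspa9* was also lower in the replicate 1 pair, at 239 and 110 FPKM, whereas *Ciapin1* (16.4 and 18.0 FPKM) and *Isca2* (28.5 and 26.7 FPKM) differed little. In heme synthesis *Ppox*, which makes protoporphyrin, fell by 0.65 and *Clpx*, a subunit of a mitochondrial protease that acts on the first enzyme of the pathway, fell by 0.55 on the log2 scale (adjusted p = 0.000196 and 0.000209). *Alas2*, the first enzyme in red cells and also 1 of the erythroid markers, had 20, 15, 69 and 60 counts (log2 fold change 1.48, standard error 0.32, adjusted p = 0.00201), and it was at 0.305 and 0.186 FPKM in the replicate 1 pair.

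In heme breakdown and transport the 3 called genes with the smallest p were all higher. Of the 2 genes called lower in this subgroup 1 was past 2-fold, and of the 5 called higher 0 were. *Slc48a1*, which moves heme out of lysosomes, was at 75.1 and 75.5 CPM with DMSO and 109 and 116 CPM with MAPK13-IN-1 (log2 fold change 0.57, standard error 0.06, adjusted p = 2.38e-05). *Hmox2*, the constitutive heme oxygenase, was at 52.3 and 52.5 and then 80.8 and 76.5 CPM (0.59, 0.07, adjusted p = 3.19e-05), and *Bach1*, a repressor that heme releases from DNA, at 34.6 and 33.8 and then 64.2 and 49.6 CPM (0.74, 0.11, adjusted p = 0.000218). The groups did not overlap for any of these 3 genes, which is no further result, since they were picked by the smallest p. *Bach1* was at 2.86 and 5.43 FPKM in the replicate 1 pair, while *Hmox2* was nearly level at 25.6 and 25.8 FPKM.

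Among the other uptake genes *Lcn2*, a lipocalin that binds siderophores, had 92 and 115 counts with DMSO and 9 and 12 counts with the inhibitor (log2 fold change −3.67, standard error 0.31, adjusted p = 3.52e-06). The metal importer gene *Slc39a8* went from 28.1 and 29.6 to 13.2 and 13.8 CPM (−1.09, 0.10, adjusted p = 4.93e-06), and its relative *Slc39a14* from 74.4 and 71.6 to 104 and 114 CPM (0.58, 0.07, adjusted p = 3.69e-05). The importers thus moved in opposite directions. In the replicate 1 pair both were higher with the inhibitor, *Slc39a8* from 5.46 to 32.2 FPKM and *Slc39a14* from 6.72 to 14.1 FPKM. *Herc2*, a ubiquitin ligase that acts on the ferritin receptor NCOA4, fell by 1.00 and *Pcbp1*, an iron chaperone for ferritin, fell by 0.80 on the log2 scale, whereas the related chaperone gene *Pcbp2* rose by 0.40 (adjusted p = 3.42e-07, 1.27e-06 and 4.91e-05). In replicate 1 *Pcbp2* was lower with the inhibitor (157 and 132 FPKM), as was *Pcbp1* (147 and 134 FPKM), and *Herc2* was nearly level (12.1 and 12.5 FPKM). *Cp*, the ferroxidase ceruloplasmin, had only 22, 25, 15 and 7 counts (log2 fold change −1.47, adjusted p = 0.0153), and the call was lost without DMSO replicate 3 (−1.43, adjusted p = 0.0592), without MAPK13-IN-1 replicate 3 (−1.07, adjusted p = 0.103) and with DESeq2 (adjusted p = 0.157), in a range of 0.00722 to 0.157. *Skp1*, a partner of F-box proteins, was at 95.8, 83.6, 109 and 100 CPM (0.22, adjusted p = 0.0287), and without DMSO replicate 3 its log2 fold change was 0.12 (adjusted p = 0.395, the largest over the alternatives).

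Enzymes that hold iron, with the partner subunit gene *Rrm1*, were described as users of the metal. Of 16 listed, 15 were tested, with 9 called lower and 4 higher (all genes 32.3% and 31.5%) and a median log2 fold change of −0.27 beside 0.01. Of the 4 higher calls, those of *Dph2*, *Cdkal1* and *Rsad2* were lost with DESeq2 (adjusted p = 0.138, 0.0514 and 0.252) and without DMSO replicate 2. Without that library their log2 fold changes were 0.39, 0.31 and 0.64, beside 0.31, 0.36 and 0.68 in the main fit. Among the lower calls that of *Ppat* held under 2 of 11 settings. That of *Rrm1* (−0.27) was lost with upper-quartile factors (−0.19, adjusted p = 0.0712) and library totals (−0.15, adjusted p = 0.153). It was −0.12 without MAPK13-IN-1 replicate 2 and −0.46 without MAPK13-IN-1 replicate 3. *Rrm2*, the iron-holding subunit of ribonucleotide reductase, went from 166 and 164 to 54.3 and 79.6 CPM (−1.303, standard error 0.13, adjusted p = 1.37e-05), and *Sdhb*, the iron-sulfur subunit of succinate dehydrogenase, from 68.4 and 75.0 to 43.5 and 45 CPM (−0.70, 0.07, adjusted p = 1.84e-05). Both were also lower in the replicate 1 pair, at 126 and 86.7 FPKM and at 73.1 and 60.3 FPKM. Of 7 activation markers, the setting in which *Tfrc* is commonly read, 5 were called lower and 2 higher (all genes 32.3% and 31.5%), with a median log2 fold change of −0.88. The higher call of *Icos* was lost without DMSO replicate 2 and without DMSO replicate 3, while its log2 fold change of 0.21 was still 0.22 and 0.17. The replicate 1 median of the 7 was 0.41, beside 0.08 over all genes tested. In that pair 2 were lower and 2 higher past 1.5-fold (all genes 7.53% and 17%), and *Cd69* (0.46) and *Tnfrsf9* (0.83) were the markers that changed direction. *Il2ra*, the interleukin receptor chain CD25, went from 963 and 963 to 368 and 430 CPM (−1.27, 0.07, adjusted p = 2e-07), and *Cd44* from 173 and 162 to 361 and 339 CPM (1.06, 0.06, adjusted p = 2.63e-07). *Tfrc*, with its 201 to 253 CPM, moved far less than either. In the count table *Icos* (0.21) and *Cd69* (−0.31) came nearer to the −0.18 of *Tfrc*, while *Slc3a2* (−0.88), *Tnfrsf9* (−1.33) and *Tnfrsf4* (−1.76) moved further.

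The 5 genes whose levels followed *Tfrc* most closely over the 4 libraries of the count table, out of 9124 genes with a mean of at least 10 CPM, were *Tlr6*, *Mphosph8*, *Akr1e1*, *Piga* and *Unc93b1*. Likeness was measured as the root mean square difference in mean-centred log2 CPM, which was 0.008 for *Tlr6* and at most 0.021 for the others. Like *Tfrc* they were highest in DMSO replicate 2 and lowest in MAPK13-IN-1 replicate 2. This order and their fold changes follow from how they were picked, and over 4 libraries close matches among 9124 genes say nothing of a shared control. Their log2 fold changes lay between −0.21 and −0.15, and their adjusted p between 0.0871 and 0.23.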

How the data were processed

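For replicates 2 and 3 the authors deposited raw counts per gene, and the submitters' notes name fastp 0.21.0, HISAT2 2.1.0, StringTie 2.1.5 and DESeq2 1.30.1 with build mm10. For replicate 1 the authors deposited values with no unit named, read as FPKM from their decimals, their sums of 405150 and 390729, and their fall relative to CPM in longer transcripts. The notes name HISAT2 for them. Counts were tested in R 4.3.3 with edgeR 4.0.16 (filterByExpr with a minimum count of 10 and a minimum total of 15, TMM, glmQLFit and glmQLFTest, 2 libraries against 2, no covariate), with Benjamini-Hochberg adjustment over 16269 genes. TMM factors were 0.960 and 0.955 with DMSO and 1.05 and 1.04 with MAPK13-IN-1. Standard errors are the log2 fold change divided by the root of F. Replicates differed beyond sampling noise and were counted separately. The fit was tested on simulated data. Replicate 1 stayed out of the fit and was given as log2(FPKM + 1) differences. Symbols, positions and exons came from GENCODE vM21 (GRCm38), and the listed name Tf was matched to *Trf* by a RefSeq synonym.

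The members and lists were chosen with earlier results of these data known. All 10 iron genes were named. Of the other pathway genes, at most 3 per subgroup with the smallest p among those called were named, plus *Aco1* and *Alas2*, and examples of the other lists, and some genes under these rules are not reported here. Alternatives were RLE and upper-quartile factors, library totals, no filter, at least 10 counts in every library, DESeq2 1.42.0, a replicate block, each library left out, an adjusted p below 0.01, a pseudocount of 0.1, and no FPKM filter.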

Additional observations from a re-analysis of the deposited data

Results flagged for a closer look

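*Alas1* moved in opposite directions in the 2 sets of libraries. It fell by 0.53 on the log2 scale in the count table, where both inhibitor libraries were below both DMSO libraries, and its log2 ratio in the replicate 1 pair was 0.33. The difference between the sets was not tested, and library kit, pipeline and replicate cannot be told apart.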

How the results depend on the processing

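Over 11 settings, 53 named genes gave 581 fold changes, of which 535 kept their direction and their side of the threshold. For *Steap3*, *Slc11a2*, *Fth1*, *Ncoa4*, *Ireb2*, *Fbxl5* and *Alas1* this held under every one of the 11. A further 35 missed the threshold, 6 newly passed it and 5 changed sign. *Ftl1* was −0.039 without MAPK13-IN-1 replicate 2 and 0.17 without MAPK13-IN-1 replicate 3. With upper-quartile factors *Ercc2* was 0.017 and *Elp3* 0.031, and with library totals they were 0.062 and 0.076. These settings shift all genes alike, by a median of 0.081 and 0.13, so that values near 0 change sign. The replicate block gave 3 iron genes lower and 5 higher, as without it, and 5384 and 5261 genes in all. Deviations of same-numbered libraries correlated at 0.0074, and with 2 pairs the numbers do not establish a pairing. The block changed the call of no iron gene. The counts of called genes given next are from fits that kept every library. Iron genes called lower were 2 with RLE or upper-quartile factors, library totals, at least 10 counts, DESeq2, or an adjusted p below 0.01. In that order, all genes called lower were 5149, 4633 and 4302 of 16269, 4716 of 14166, 4271 of 19995 and 4247 of 16269. The main fit had 5252 lower and 5122 higher of 16269. Iron genes called higher were 6 with library totals, where 6176 of all 16269 genes were. Without DMSO replicate 2 the log2 fold change of *Tfrc* was −0.09. Without a filter on low FPKM, 2.54% of genes in the replicate 1 pair were lower and 6.15% higher past 1.5-fold. With a pseudocount of 0.1 the ratio of *Steap3* there was 2.79 and that of *Slc40a1* 0.68. Where a library was left out, the lone library was taken to vary like the other group. The small changes of *Tfrc* and *Ftl1* depended on the setting and were not settled with these libraries. No fold change is given for *Slc40a1*, which did not pass the filter on low counts.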
